A study of Mus musculus with 6 samples.

Results

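The genes described here build the slit diaphragm, the apical membrane and the cytoskeleton of the podocyte: Kirrel, Cd2ap, Plce1, Synpo, Actn4, Myh9, Inf2, Podxl, Pdpn and Nes. They were chosen by name, with earlier results of these data known. All 10 were listed among the 11308 gene symbols of the table, with 19 of its 21849 protein-coding transcripts. RNA-seq of polyA RNA was done on MPC5 cells, a conditionally immortalized podocyte line, labelled as C57BL/6 mouse kidney cells and grown in normal glucose. The groups were 3 samples overexpressing the lncRNA Dlx6-os1 from a viral vector and 3 control samples. According to the labels the virus was a lentivirus and the controls received an empty vector, but control replicate 3 has no genotype label. That sample was grouped by its title alone. The methods of the paper instead describe adenovirus with normal cells as controls, and the control titles read WT. The comparison asks how these genes differed in level when Dlx6-os1 was raised in podocytes without high glucose. The paper describes its measurements in general as coming from different animals or separate experiments. Neither it nor the labels say how the cultures behind these 6 libraries were kept apart, so the spread between them may be partly or wholly technical. The SDs, intervals and p-values below may thus leave out variation between cultures.

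Podocytes are the epithelial cells that wrap the glomerular capillaries with interdigitating foot processes. Neighbouring foot processes are bridged by the slit diaphragm, a junction of nephrin and Kirrel-family proteins whose cytoplasmic tails are tied by adaptors to bundled, contractile actin filaments. Loss of the slit diaphragm or rearrangement of the actin network flattens the foot processes, and inherited defects in several of these genes cause proteinuria in humans.

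Values are FPKM, fragments counted relative to transcript length and to all mapped fragments of the sample, so that levels can be set side by side per length. The FPKM of a gene is the sum over its listed transcripts. A change is the difference on the log2(FPKM + 1) scale, overexpression minus control, on which low genes appear to change less than they do. A gene counts as lower or higher where its unadjusted limma p was under 0.05 and its fold on that scale above 1.5, as the study set its thresholds. Adjusted p-values are Benjamini-Hochberg values over all genes or all transcripts tested.

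The listed FPKM summed to between 329402 and 371806 per sample, and the number of reads behind them is not known. Of 9 podocyte marker genes Synpo, Podxl, Thsd7a and Plce1 were listed, and the defining gene Nphs1 (nephrin) had no row in the table and was not analysed here. The summed level of the 4 was 55.6 to 65.7 FPKM in Dlx6-os1-overexpressing cells and 49.7 to 89.1 FPKM in control cells. The level of Dlx6-os1 itself was not analysed here, since the table holds protein-coding transcripts, so the labels were not checked against it.

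Kirrel, Pdpn and Plce1, 3 of the 10 genes, fell in Dlx6-os1-overexpressing cells, and 0 rose. The fall of Plce1 holds for the sum of its transcripts and not for its main transcript alone. In each of the 3 gene sums every overexpressing sample lay below every control sample. For Plce1 this held only with Plce1-002 counted, a transcript that is in the table only through its control mean. Kirrel fell most, and the largest part of its fall was assigned to a single transcript, which is nearly identical to another. The genes of the actin network (Synpo, Actn4, Myh9, Inf2), Cd2ap, Podxl and Nes did not pass the thresholds. Over all genes tested, 2.23% were lower and 2.49% higher at the same thresholds, and 6.24% had overexpressing samples that all lay below the controls. Since the 10 genes were chosen with earlier results of these data known, these shares are background and not a test of the 10. No gene of the 10 passed an adjusted p of 0.05 (limma), which 0.0354% of all genes did, while 3 had an unadjusted p under 0.05, beside 9.16% of all genes. The median change was -0.12 for the 10 genes and 0.03 for all genes.

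In order of mean FPKM in overexpressing cells, Myh9 (278) and Actn4 (213) led, followed by Nes (84.5), Inf2 (60.3), Synpo (49.2), Kirrel (44.0), Cd2ap (35.2), Podxl (10.8), Pdpn (3.55) and Plce1 (1.40). In control cells Kirrel, at 128 FPKM, stood directly behind Myh9 and Actn4 and above every sample of Nes, and the order of the other genes was the same. Single samples of Inf2, Synpo and Cd2ap overlapped in control cells. In overexpressing cells those of Myh9 and Actn4 overlapped, as did those of Inf2 and Synpo. Kirrel, at 30.03 to 70.9 FPKM there, overlapped Inf2, Synpo and Cd2ap. Differences in level between these neighbours were not tested.

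**Figure D1:**
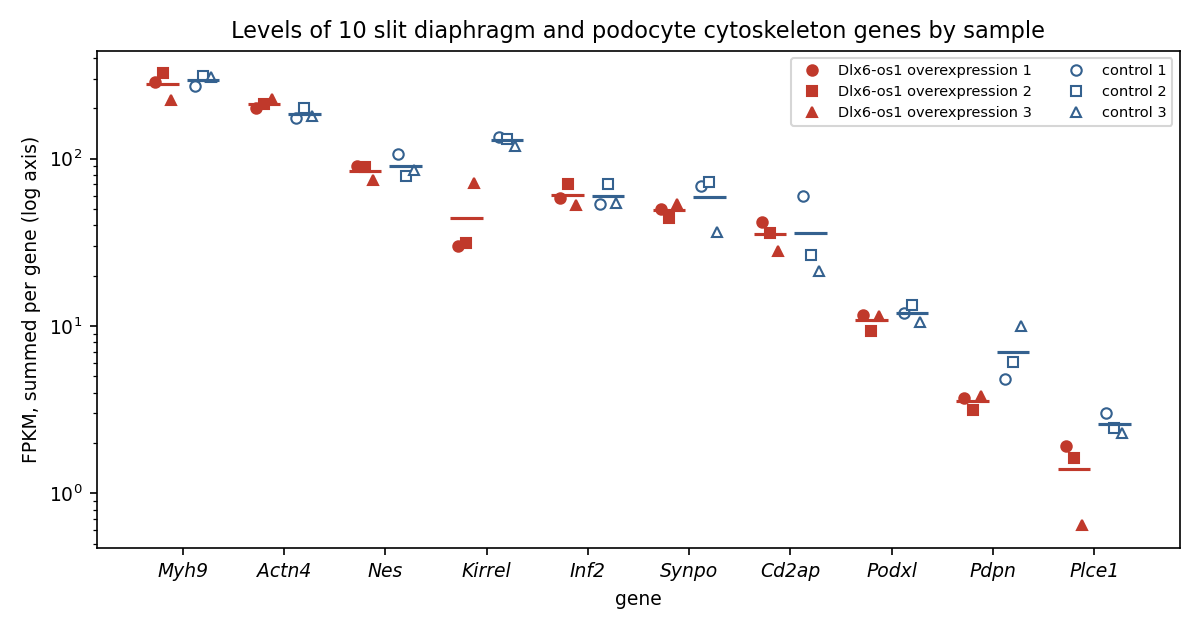
FPKM of each of the 10 genes in every sample, summed over listed transcripts, on a log axis, with Dlx6-os1-overexpressing samples (filled, red) left of control samples (open, blue) and horizontal bars at the group means. Kirrel, Pdpn and Plce1 are the genes whose groups do not overlap, and for Kirrel 1 overexpressing sample, at 70.9 FPKM, lies between the other overexpressing samples and the controls.

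**Figure D2:**
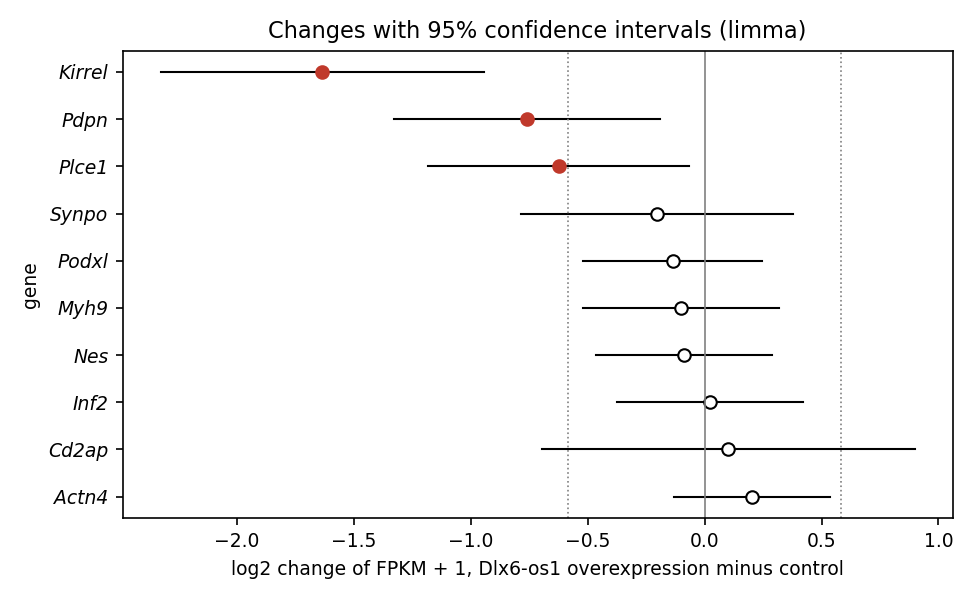
Change of each gene on the log2(FPKM + 1) scale, overexpression minus control, with 95% intervals from the model fitted across all genes. Dotted lines mark a fold of 1.5 and filled points the genes past the thresholds of the study. These are Kirrel at -1.63, Pdpn at -0.76 and Plce1 at -0.62, the last only as the sum of its transcripts. Of all genes, 2.23% were lower at these thresholds.

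Kirrel encodes NEPH1, the immunoglobulin-superfamily protein that binds nephrin across the slit. The gene spans 87078593 to 87174747 of chromosome 3 in mm10, minus strand. Its 3 listed transcripts do not all encode the same protein, and the sequences below show where they part, as background to the transcript values. Kirrel-001 (ENSMUST00000159976.7) and Kirrel-201 (ENSMUST00000107618.8) have 16 exons each and the same coding sequence of 2367 bases in GENCODE M21. Kirrel-002 (ENSMUST00000041732.8) has 14 exons and 1902 coding bases, does not splice after its last exon, and so lacks 552 coding bases of Kirrel-001. In both sequences the 30 lower-case bases are the shared end of the same exon, and capitals mark the coding bases that follow, which are 78 bases of the next exon in Kirrel-001 and Kirrel-201 and 87 bases found only in Kirrel-002.
Kirrel-001: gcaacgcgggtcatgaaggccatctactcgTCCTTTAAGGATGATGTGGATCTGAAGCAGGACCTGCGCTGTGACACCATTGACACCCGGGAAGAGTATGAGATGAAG
Kirrel-002: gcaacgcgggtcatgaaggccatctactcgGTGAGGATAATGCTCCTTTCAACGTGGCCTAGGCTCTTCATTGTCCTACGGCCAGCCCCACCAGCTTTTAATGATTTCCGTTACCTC

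**Figure D3:**
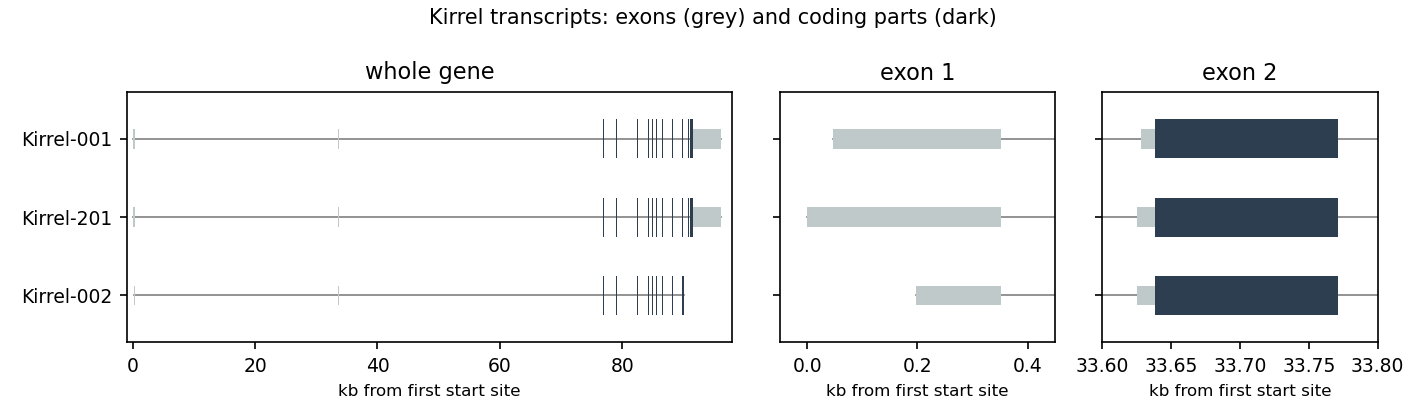
Exons of the 3 listed Kirrel transcripts in GENCODE M21, drawn against distance in kb from the first start site for the whole gene and enlarged for exon 1 and exon 2, with coding parts as tall dark boxes and the rest of the exons as low grey boxes. Kirrel-001 and Kirrel-201 carry 16 exons each with the same coding parts, and Kirrel-002 ends after exon 14.

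Kirrel summed to 30.03, 31.1 and 70.9 FPKM in Dlx6-os1-overexpressing cells, against 134, 131 and 119 FPKM in control cells. Relative to the control mean, the overexpressing samples held 23.4%, 24.3% and 55.3%, so that replicate 3 held the most and still lay below every control. The means were 44.0 ± 23.3 FPKM in overexpressing cells and 128 ± 7.70 FPKM in control cells (SD, n = 3 each), a 2.91-fold lower level with overexpression. The change was -1.63 ± 0.30 (SE, limma), with a 95% interval of -2.33 to -0.94 and adjusted p = 0.307 over all genes. Counted from the lowest change, Kirrel ranked 7 of 11308 genes. Without overexpressing replicate 3 the change was -2.03 with an adjusted p of 0.00494. With any other sample left out it was -1.68 to -1.42, with adjusted p-values from 0.222 to 0.851. In RNA from a whole culture, fewer cells with a transcript and less of it per cell cannot be told apart.

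Kirrel-001 was at 16.9, 12.9 and 16.4 FPKM in overexpressing cells, against 91.4, 72.9 and 71.0 FPKM in control cells. The 3 overexpressing samples lay close together and far below the controls, without the spread seen in the gene sum. The change was -2.27 ± 0.17 (SE) with adjusted p = 0.0166 over all transcripts (limma). By p it ranked 7 of 21849, and 0.101% of all transcripts passed the adjusted threshold, 12 lower and 10 higher. Among these were pairs from the same gene that changed in opposite directions, in Usp54 (-3.20 and 2.97), Sbno1 (3.59 and -2.90) and Fblim1 (3.61 and -2.65). The others, Kirrel-001 included, had no second transcript of their gene past this threshold. Leaving out a sample gave adjusted p-values from 0.0408 to 0.0715, over 0.05 without control replicate 2 (0.0708), control replicate 3 (0.0669), overexpressing replicate 1 (0.0715) or overexpressing replicate 2 (0.0511). It was also over 0.05 with the replicate number as a block (adjusted p = 0.143) and in a linear model without moderation (adjusted p = 0.136).

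Kirrel-201 was at 12.2, 17.7 and 54.2 FPKM in overexpressing cells, against 42.4, 57.3 and 47.9 FPKM in control cells. Overexpressing replicates 1 and 2 lay below every control and replicate 3 lay among them, so the groups overlapped, and the change was -1.06 ± 0.51 with adjusted p = 0.661, not past the thresholds. Without that replicate the change was -1.66 with adjusted p = 0.137 and passed the unadjusted threshold, while without overexpressing replicate 1 it was -0.63 and did not pass. Overexpressing replicate 3 differed from replicates 1 and 2 in this transcript and not in Kirrel-001.

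Kirrel-002, the shorter form, was at 0.918, 0.489 and 0.322 FPKM in overexpressing cells and 0.274, 0.808 and 0.532 FPKM in control cells. The groups overlapped, and the change was 0.03 ± 0.23 with an adjusted p of 0.974, and its sign turned with quantile normalization or median-centring. It held 0.454% to 3.06% of the gene sum in overexpressing cells and 0.204% to 0.616% in control cells.

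Kirrel-001 held 56.3%, 41.5% and 23.1% of the Kirrel sum in overexpressing cells, against 68.2%, 55.7% and 59.4% in control cells, with an overlap between overexpressing replicate 1 and control replicate 2. The division between Kirrel-001 and Kirrel-201 rests on few bases. They share 7228 bases, 8 bases at the 3′ end belong only to Kirrel-001, and 50 bases, at the starts of exon 1 and exon 2, belong only to Kirrel-201, all outside the coding sequence. How far the assignment of fragments between these near-identical models set their levels was not tested.

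**Figure D4:**
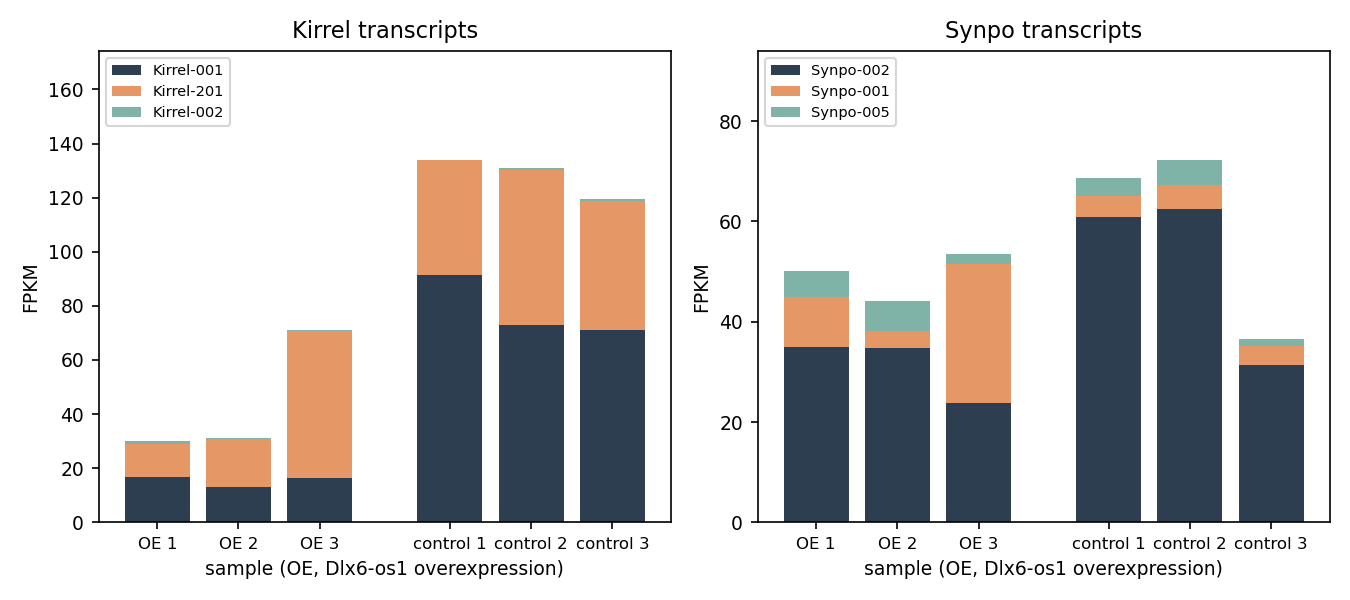
FPKM of the 3 Kirrel and 3 Synpo transcripts as stacked bars, 1 bar for each sample, with Dlx6-os1-overexpressing samples (OE) left of control samples. The Kirrel-001 part is at 12.9 to 16.9 FPKM in the overexpressing samples and at 71.0 to 91.4 FPKM in the controls, and in overexpressing replicate 3 Kirrel-201 (54.2 FPKM) and Synpo-001 (27.8 FPKM) stand above the other overexpressing samples.

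Plce1 encodes phospholipase C epsilon, a signalling enzyme mutated in an early form of human nephrotic syndrome. The gene sum (chromosome 19, plus strand, Plce1-001 at 38524197 to 38785030) was 1.92, 1.63 and 0.645 FPKM in overexpressing cells, against 3.03, 2.47 and 2.31 FPKM in control cells. The groups did not overlap, and the means were 1.40 ± 0.670 FPKM in overexpressing cells and 2.604 ± 0.381 FPKM in control cells (SD, n = 3 each). The change was -0.62 ± 0.24 (SE), a 95% interval of -1.18 to -0.07 and adjusted p = 0.516.

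The call for Plce1 depended on how its transcripts were summed. Plce1-001 alone was at 1.92, 1.63 and 0.645 FPKM in overexpressing cells, against 3.03, 2.30 and 0.684 FPKM in control cells, a change of -0.27 that did not pass. Plce1-002, which has the same coding sequence of 6846 bases, was listed at 0 in all 3 overexpressing samples and at 0.000553, 0.176 and 1.62 FPKM in control cells, where it held 70.3% of the sum in replicate 3. The table lists Plce1-002 only through its control mean of 0.5995 FPKM, which is above the 0.5 FPKM that every listed transcript reaches in at least 1 group, and the call of the gene sum rests on that transcript. The gene sum missed the p threshold without control replicate 1 (change -0.54), control replicate 2 (-0.65) or overexpressing replicate 3 (-0.37).

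Cd2ap encodes an adaptor that ties nephrin to actin. Cd2ap-201, its 1 listed transcript (chromosome 17, minus strand, 42792951 to 42876424), was at 41.5, 35.97 and 28.0 FPKM in overexpressing cells and 59.8, 26.4 and 21.2 FPKM in control cells. Control replicate 1 exceeded the other controls by more than 2-fold, and every overexpressing sample lay between the extremes of the controls. The change was 0.10 ± 0.35 (SE) with a 95% interval of -0.70 to 0.90 and an adjusted p of 0.949, an interval too wide to place the level of this adaptor, and its sign varied with the processing.

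Synpo encodes synaptopodin, the actin-binding protein of the foot process that marks differentiated podocytes. The gene sum was 50.03, 44.1 and 53.4 FPKM in overexpressing cells and 68.6, 72.3 and 36.5 FPKM in control cells. Control replicates 1 and 2 lay above and control replicate 3 below the overexpressing samples, and the change was -0.20 ± 0.25 (SE), with a 95% interval of -0.78 to 0.38 and adjusted p = 0.855. Without control replicate 3 the change was -0.51, short of the fold threshold, and with any other sample left out it was -0.26 to -0.03. On the minus strand of chromosome 18 (60593973 to 60629853 in mm10) the 3 listed transcripts differ in their coding length, with 3300 bases in Synpo-002, 2703 in Synpo-001 and 2070 in Synpo-005.

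Synpo-002, the most abundant, was at 35.0, 34.7 and 23.7 FPKM in overexpressing cells, against 61.0, 62.4 and 31.4 FPKM in control cells. Control replicate 3 was the exception that made the groups overlap. The change was -0.67 ± 0.31 (SE) with adjusted p = 0.661. Without control replicate 3 it was -0.98 with adjusted p = 0.53 (limma), past the thresholds of the study. With any other sample left out it was -0.76 to -0.49 and did not pass. Synpo-002 held 70%, 78.8% and 44.4% of the gene sum in overexpressing cells, against 88.9%, 86.3% and 86% in control cells.

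Synpo-001 was at 9.98, 3.52 and 27.8 FPKM in overexpressing cells, against 4.10, 4.84 and 3.70 FPKM in control cells. Overexpressing replicates 1 and 3 lay above all controls and replicate 2 below all of them, and the change was 1.12 ± 0.63 (SE) with adjusted p = 0.690. Its share of the sum was 20%, 7.99% and 52% in overexpressing cells and 5.98%, 6.69% and 10.1% in control cells. Without overexpressing replicate 2 the change was 1.78 with adjusted p = 0.615, past the unadjusted threshold, and without overexpressing replicate 3 it was 0.44, so that these samples set its size.

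Synpo-005 was at 5.02, 5.84 and 1.93 FPKM in overexpressing cells and 3.53, 5.08 and 1.41 FPKM in control cells. The groups overlapped, with replicate 3 the lowest in each, and the change was 0.29 ± 0.47 (SE) with an adjusted p of 0.880, and its sign varied with the sample left out. Of the 6 transcripts of Kirrel and Synpo, Kirrel-001 alone passed the thresholds of the study, which 2.51% of all transcripts passed in the lower direction. Among all 19 transcripts of the 10 genes 3 were lower (Kirrel-001, Pdpn-001 and Actn4-005) and 0 higher.

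Actn4 encodes alpha-actinin-4, the crosslinker of actin filaments mutated in a dominant human glomerulosclerosis. The gene sum (chromosome 7, minus strand, 28893248 to 28962340) was 199, 213 and 227 FPKM in overexpressing cells and 175, 200.9 and 179 FPKM in control cells. Control replicate 2 lay above overexpressing replicate 1, and the change was 0.20 ± 0.15 (SE), with a 95% interval of -0.13 to 0.53 and adjusted p = 0.706. Nearly all of it was Actn4-001, at 196, 209 and 225 FPKM in overexpressing cells and 171, 196 and 173 FPKM in control cells.

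A minor transcript, Actn4-005, was at 2.27, 1.60 and 0.588 FPKM in overexpressing cells, against 3.45, 4.03 and 4.67 FPKM in control cells. The groups did not overlap, and its share of the gene sum was 1.14%, 0.75% and 0.26% in overexpressing cells, against 1.97%, 2.01% and 2.61% in control cells. The change was -1.08 ± 0.31 (SE), with adjusted p = 0.638, and it passed the thresholds of the study. It was named after its values had been seen.

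Actn4-005 uses another version of exon 8 than Actn4-001, both 86 bases long, and the sequences show how alike these exons are. Exon 8 of Actn4-001 lies at 28911490 to 28911575 and that of Actn4-005 at 28909903 to 28909988, on the minus strand of chromosome 7. Capitals mark the 21 positions that differ, and 65 are identical. Whether reads could be told apart between them was not tested.
Actn4-001: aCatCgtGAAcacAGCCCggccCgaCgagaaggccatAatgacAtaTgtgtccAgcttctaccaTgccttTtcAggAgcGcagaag
Actn4-005: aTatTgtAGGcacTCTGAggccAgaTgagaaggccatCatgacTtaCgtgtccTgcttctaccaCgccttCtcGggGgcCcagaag

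Myh9 encodes the heavy chain of non-muscle myosin IIA, the motor that puts the actin bundles under tension, and it had the highest level of the 10 genes. Myh9-001 (chromosome 15, minus strand, 77760587 to 77842175) was at 287, 323 and 223 FPKM in overexpressing cells and 270, 310 and 306 FPKM in control cells. The groups overlapped, with a change of -0.10 ± 0.18 (SE), a 95% interval of -0.52 to 0.32 and an adjusted p of 0.909.

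Inf2 encodes a formin that assembles and severs actin filaments, also mutated in human glomerulosclerosis. Inf2-201 (chromosome 12, plus strand, 112588784 to 112615556) was at 57.9, 70.2 and 52.8 FPKM in overexpressing cells and 53.7, 70.6 and 53.9 FPKM in control cells. The groups covered nearly the same range, and the change was 0.02 ± 0.17 (SE), with a 95% interval of -0.37 to 0.42 and an adjusted p of 0.978. Its sign turned when samples were centred on their medians.

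Pdpn encodes podoplanin, a mucin-type membrane protein that reaches actin through ezrin-family linkers, and antibodies against it flatten foot processes in rats. Pdpn-001 (chromosome 4, minus strand, 143267431 to 143299564) was at 3.71, 3.15 and 3.81 FPKM in overexpressing cells, against 4.80, 6.10 and 10.03 FPKM in control cells. The overexpressing samples lay close together below all controls, and the controls spread from near them to more than 2-fold above. The means were 3.55 ± 0.354 FPKM in overexpressing cells and 6.98 ± 2.72 FPKM in control cells (SD, n = 3 each), and the change was -0.76 ± 0.25 (SE), with a 95% interval of -1.33 to -0.19 and adjusted p = 0.481.

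Control replicate 3, the highest for Pdpn, also stood apart for Acta2, a smooth muscle actin of mesangial cells and myofibroblasts, at 86.8 FPKM against 4.74 to 7.19 FPKM in the other 5 samples. Without control replicate 3 the change of Pdpn was -0.50, short of the fold threshold. Of 8 mesangial and fibroblast markers 4 were listed, and they summed to 12.3 to 18.9 FPKM in overexpressing cells and 18.5 to 100.3 FPKM in control cells. Their part in the level of Pdpn was not tested.

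Podxl encodes podocalyxin, the sialomucin whose negative charge keeps foot processes apart. Podxl-001 (chromosome 6, minus strand, 31519488 to 31563981) was at 11.5, 9.34 and 11.5 FPKM in overexpressing cells and 11.9, 13.4 and 10.6 FPKM in control cells. The groups overlapped, and the change was -0.14 ± 0.17 (SE), with a 95% interval of -0.52 to 0.25 and an adjusted p of 0.853.

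Nes encodes nestin, an intermediate filament protein that podocytes keep when mature. The gene sum (chromosome 3, plus strand, 87971093 to 87980451) was 90.3, 89.2 and 74.0 FPKM in overexpressing cells and 106, 79.1 and 85.6 FPKM in control cells. The groups overlapped, with a change of -0.09 ± 0.16 (SE), a 95% interval of -0.46 to 0.29 and an adjusted p of 0.911. Nes-003, which lacks 132 coding bases of Nes-001, held 83% to 84.3% of the sum in overexpressing cells and 81.2% to 85% in control cells. For Actn4, Myh9, Inf2, Podxl and Nes the 95% intervals lay within a fold of 1.5 in either direction.

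The wider lists of podocyte genes held no further call. The 5 lists named 89 genes, of which 71 were measured. The 3 that fell were Kirrel, Plce1 and Pdpn themselves, Plce1 only as the sum of its transcripts. Of 15 measured slit diaphragm and adaptor genes 2 fell, and of 9 apical membrane genes 1 fell. Of 33 actin cytoskeleton, 9 intermediate filament and 5 transcription factor genes 0 passed in either direction. Beside these counts, 2.23% of all genes were lower and 2.49% higher at the same thresholds. Lists this short hold few genes at such shares, and they were not tested as sets. The median changes of these lists were -0.15, -0.14, -0.05, 0.11 and -0.14, beside 0.03 over all genes. Of the 61 listed genes outside the 10 described here, 0 passed the thresholds of the study in limma, and 2 had an unadjusted p under 0.05, a smaller share than the 9.16% of all genes.

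The levels of those 2 genes are given without a call, since neither reached a fold of 1.5. Pard3, a polarity protein that binds nephrin, was at 25.6, 25.4 and 21.4 FPKM in overexpressing cells, against 19.5, 18.1 and 15.7 FPKM in control cells, a change of 0.42 with adjusted p = 0.495. Plec, which encodes the cytolinker plectin, was at 27.2, 31.0 and 34.3 FPKM in overexpressing cells, against 19.6, 26.4 and 24.2 FPKM in control cells, a change of 0.39 with adjusted p = 0.539.

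Markers of other kidney cells were looked up in the same fit. Of 11 tubule markers 2 were listed and both fell at the thresholds of the study, as 2.23% of all genes did. Aqp1 (a water channel) was at 88.0, 65.7 and 18.3 FPKM in overexpressing cells, against 138, 166 and 92.5 FPKM in control cells. Its change was -1.41 with adjusted p = 0.494 (limma). Lrp2 (the endocytic receptor megalin) was at 37.8, 36.5 and 18.7 FPKM in overexpressing cells, against 60.2, 43.4 and 47.7 FPKM in control cells. Its change was -0.74 with adjusted p = 0.496 (limma). Their sum was 36.9 to 126 FPKM in overexpressing cells and 140 to 209 FPKM in control cells, and the other 9 tubule markers had no row. Of 7 endothelial markers 1 was listed, at 1.80 to 2.40 FPKM in overexpressing cells and 2.62 to 2.795 FPKM in control cells. Of 7 leukocyte markers 2 were listed, and they summed to 10.2 to 12.5 FPKM in overexpressing cells and 10.6 to 13.5 FPKM in control cells. None of these 3 genes passed the thresholds. The part of these markers in the results for Kirrel, Pdpn and Plce1 was not tested.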

How the data were processed

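The authors deposited FPKM values of 21849 protein-coding transcripts in 6 samples. FastQC, HISAT2, StringTie and the build mm10 appear in the submitters' processing notes, with no versions. In every transcript of the table the larger group mean was at least 0.5001 FPKM, so lower transcripts had been removed before deposit. A search of the low values for a common step worth 1 read was inconclusive. The concentration was 0.202 to 0.320, a range reaching below and above the 0.232 to 0.277 found with the lengths of other genes. The depth is therefore not known, and precision rests on the spread between samples. Single transcript levels rest on how StringTie divided fragments between overlapping models.

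Samples were grouped by their titles, and columns matched by their descriptions. Control replicate 3 has no genotype label. FPKM were summed per gene symbol. Requiring a mean of 0.5 FPKM in either group excluded no gene. Two-sided tests used limma 3.58.1 in R 4.3.3 (eBayes, trend on) on log2(FPKM + 1), where 1 is the pseudocount. The thresholds of a p under 0.05 and a fold above 1.5 are those of the study, whose methods name no test for RNA-seq. An exact permutation test of 3 against 3 samples cannot go below p = 0.1, so none is printed. The model was tested on simulated data. Exons and sequences are from GENCODE M21 on GRCm38, the assembly of mm10, where 17 of the 19 transcripts had the same identifier and span.

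The 10 genes, the lists and the marker sets were chosen with earlier results of these data known. Some genes of these lists are not reported here and were left out of all list counts and sums. Named were every one of the 10 genes, every Kirrel and Synpo transcript, for the others the most abundant transcript, and each listed gene past the thresholds. Plce1-002, Nes-001, Actn4-005, Pard3, Plec, Acta2, Aqp1 and Lrp2 were named after their values had been seen. Tried in addition were TPM over the listed transcripts, pseudocounts of 0.5 and 0.1, filters at 1 FPKM or none, quantile normalization, median-centring, the replicate block, no trend, no moderation, folds of group means, the most abundant transcript and leaving out each sample.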

Additional observations from a re-analysis of the deposited data

How the results depend on the processing

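Kirrel was lower and past the thresholds of the study under every alternative run, with a change of -2.03 to -1.42 for the gene sum and -2.27 for its most abundant transcript alone. The adjusted p of Kirrel-001 over all transcripts was 0.143 with the replicate block, 0.136 without moderation, and 0.0408 to 0.0715 with a sample left out. Without moderation 1 of the 10 genes, 1 of the listed podocyte genes and 248 of all genes were called, against 3, 3 and 534. With a sample left out these counts were 2 to 3, 2 to 4 and 387 to 787. Of the Kirrel and Synpo transcripts 2 were called with the replicate block (Synpo-002 the other, at -0.67), and 1 to 2 with a sample left out, against 1. Plce1 was also not called after rescaling to TPM or on its most abundant transcript. Median-centring gave 228 higher and 314 lower genes, against 282 and 252. In these cases the cause was not tested.

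Some changes near 0 turned their sign. Kirrel-002 was at -0.0016 with quantile normalization and -0.014 with median-centring, Inf2 at -0.015 with median-centring and Cd2ap at -0.025 by the fold of group means. With a sample left out the changes ran from -0.12 to 0.16 for Kirrel-002, -0.091 to 0.15 for Inf2, -0.19 to 0.54 for Cd2ap, -0.22 to 0.047 for Myh9, -0.18 to 0.032 for Nes and -0.088 to 0.66 for Synpo-005.

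Deviations of samples sharing a replicate number correlated at r = 0.287, 0.024 and 0.295 for replicates 1, 2 and 3. Those of samples with different numbers correlated at -0.311 to 0.106. The samples of replicate 1 and of replicate 3 correlated best with their own number, and those of replicate 2 did not. The main fit did not take the numbers as pairs, and the replicate block was run as an alternative. With the replicate block 643 genes were called, 10 of them at an adjusted p under 0.05 against 4, and of the genes described Kirrel, Pdpn and Plce1. The unknown depth limits most the transcripts under 1 FPKM.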
